A study of Homo sapiens with 4 samples.

Results

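The LDL receptor family comprises single-pass membrane proteins that bind extracellular ligands through cysteine-rich class A repeats and carry many of them into the cell by clathrin-mediated endocytosis. Some members are mainly uptake receptors, and others transmit signals, as LRP5 and LRP6 do for Wnt proteins and LRP8 and VLDLR do for reelin. In breast cancer cells these receptors are known for clearing protease complexes and matrix proteins and for setting the response to Wnt ligands. LRP3, LRP10 and LRP12 form a subgroup in which class A repeats alternate with CUB domains, and the function of LRP3 is the least well known.

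Members of this family were examined, namely LRP1, LRP3, LRP4, LRP5, LRP6, LRP8, LRP10, LRP11, LRP12 and VLDLR, which are 10 of the 61541 genes in the count table. They were chosen by family name because LRP3 was lower in cadmium-resistant cells, so the LRP3 values are given as a description and without a test. RNA was sequenced from MDA-MB-231, an established human breast cancer line. Cadmium-resistant cells had been serially passaged in medium with cadmium sulfate, finally at 10 µM, and control cells were parental cells carried through passages in ordinary medium. There were 2 libraries per group, here named control 2, control 3, cadmium 1 and cadmium 2 after the numbers in the table. Both groups derive from a single line. The labels call the controls biological replicates and the cadmium libraries only replicates, without saying whether the latter were separate cultures. P-values therefore measure only the spread between these libraries, which may be technical, in the cadmium group at least.

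Between 51934729 and 61916007 reads were assigned to genes per library. All 7 marker genes of this line that were examined, among them VIM and CD44, exceeded 1 TPM, a read count scaled by gene length and library, in every library, whereas the hormone receptor genes ESR1 and PGR, which this line is known to lack, were at most 0.153 TPM. The 5 leukocyte markers summed to between 5.55 and 10.5 TPM, with CD3E at 0 in all libraries, the 4 endothelial markers to between 8.77 and 11.7 TPM, and the 6 fibroblast markers to between 11.5 and 16.6 TPM. The luminal epithelial list summed to between 581 and 865 TPM, mainly from KRT19. The endothelial sum was 11.7 and 10.8 TPM in the cadmium libraries against 8.77 and 10.7 TPM in the controls. Its main genes, PECAM1 and KDR, did not share a direction, since for each both cadmium values lay between the controls. The leukocyte sum was lower after cadmium (5.55 and 6.23 against 10.5 and 8.93 TPM), mainly from CD14. PTPRC lay between the controls, and LYZ was highest in cadmium 1 and lowest in cadmium 2. The part of these sums in the results was not tested. Control 2 and control 3 differed at least 2-fold for 14.2% of the 12924 genes averaging at least 100 normalized counts, while cadmium 1 and cadmium 2 did so for 0.317%.

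Promoter sequences are shown for LRP3, the gene that set the choice of family, and for LRP10, its most abundant relative in the CUB subgroup. They are the 250 bases before the RefSeq start site on GRCh38.p14, read 5′ to 3′ on the plus strand, with capitals marking matches to the core letters of the metal response element that MTF-1 binds, TGCACNC or TGCGCNC on either strand.
LRP3, chr19:33194080-33194329: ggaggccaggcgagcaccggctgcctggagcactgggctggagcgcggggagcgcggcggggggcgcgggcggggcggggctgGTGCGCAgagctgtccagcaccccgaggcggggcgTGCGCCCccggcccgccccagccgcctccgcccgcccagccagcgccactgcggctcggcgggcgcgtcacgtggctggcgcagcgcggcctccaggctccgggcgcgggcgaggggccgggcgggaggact
LRP10, chr14:22871490-22871739: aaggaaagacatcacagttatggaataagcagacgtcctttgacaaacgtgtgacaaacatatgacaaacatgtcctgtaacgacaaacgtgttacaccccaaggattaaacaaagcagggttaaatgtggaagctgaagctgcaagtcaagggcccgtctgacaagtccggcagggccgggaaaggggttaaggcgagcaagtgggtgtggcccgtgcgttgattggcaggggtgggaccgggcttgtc
The LRP3 window held 2 matches that did not overlap, from 167 to 161 and from 132 to 126 bases before the start, and the LRP10 window held 0. Among the 7 members with a RefSeq promoter, LRP1 and VLDLR had 1 match each, and LRP5, LRP8, LRP10 and LRP11 had 0. Of the 250 window bases, 250 for LRP8 and 220 for VLDLR lie in an exon of that gene in the count table. These windows may therefore hold transcribed sequence. A match was present in 24.8% of all 35116 promoter windows of this length, so such letters are common. None of the 7 windows held the AP-1 letters TGACTCA or TGAGTCA, found in 4.20% of all windows, or the sterol response element, found in 0.0342%. GC content was 83.6% for LRP3, above 99.1% of all windows, and 51.6% for LRP10. The RefSeq start of LRP3 lies 16727 bases downstream of the first LRP3 exon in the count table, and counts per gene do not show which start was used.

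LRP3 (ENSG00000130881, chromosome 19, 33177603 to 33208864, hg38, plus strand) was lower in each cadmium library than in either control. It had 274 and 251 reads in controls 2 and 3, and 59 and 55 in cadmium 1 and 2. Exact Poisson 95% intervals of these counts were 243 to 308, 221 to 284, 44.9 to 76.1 and 41.4 to 71.6, and they cover counting error only. After scaling for depth, the normalized count was 259 and 267 in controls 2 and 3 and 58.7 and 54.3 in cadmium 1 and 2. The libraries of a group almost coincided, and the groups did not overlap. The mean was 263 ± 5.39 (SD, n = 2) in control against 56.5 ± 3.12 (SD, n = 2) after cadmium passage, a DESeq2 log2 fold change of -2.22 (SE 0.40). Across the 4 possible library pairs between the groups, LRP3 was between 4.42-fold and 4.91-fold lower. Leaving out any single library kept the log2 fold change between -2.28 and -2.17. These values are a description only, because LRP3 was chosen for its fall in the same libraries. In RNA from whole cultures, fewer cells with LRP3 transcripts and less LRP3 RNA per cell cannot be told apart.

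**Figure D1:**
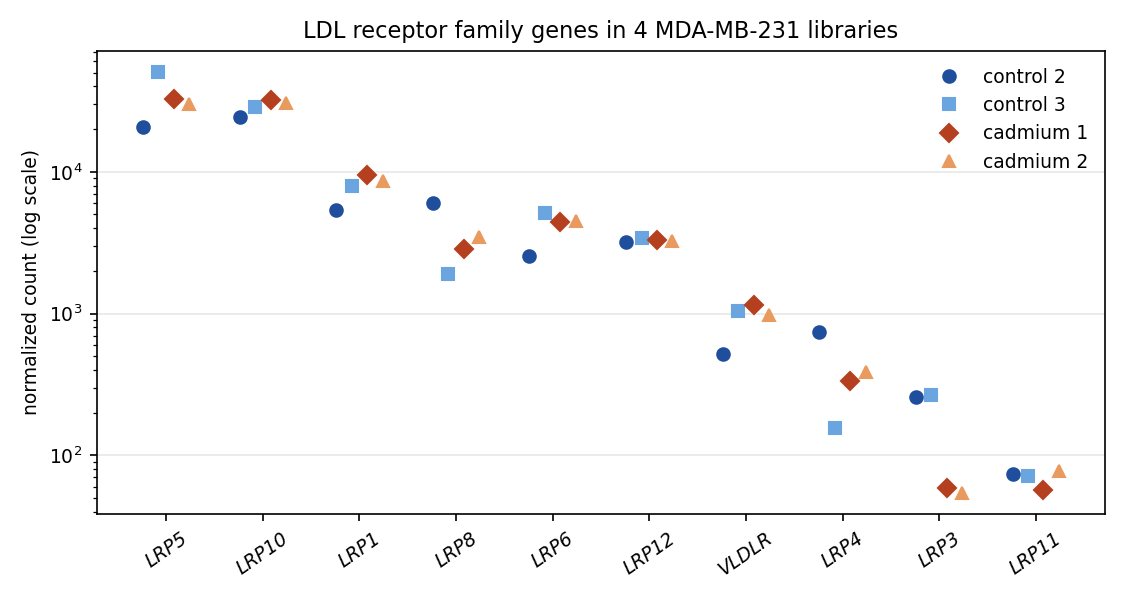
Normalized counts of the 10 LDL receptor family genes (log scale), 1 point for each library, with genes ordered by their control mean. LRP3 is the gene whose control points, at 259 and 267, lie far above its cadmium points, at 58.7 and 54.3, while LRP4, LRP5 and LRP8 have control points on either side of both cadmium points.

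LRP3 was also set beside its neighbours on chromosome 19. The 20 nearest genes on each side that averaged at least 100 normalized counts had a median log2 ratio of cadmium over control of -0.08, between -1.34 and 0.59. LRP3 itself had a ratio of -2.20 on this scale, lower than all 40 neighbours. With neighbours averaging at least 10 normalized counts, 1 of 40 lay below LRP3, at -2.38. Because LRP3 was chosen for its fall, its place among neighbours is a description only. Next to it upstream is the lncRNA gene ENSG00000289378 on the minus strand, with 26 and 22 reads in the controls and 30 and 35 in the cadmium libraries. WDR88, the nearest protein-coding gene on that side, had normalized counts of 33.1 and 29.8 in the controls and 35.8 and 28.6 in the cadmium libraries. GPATCH1, beyond it, had 1174 and 1136 in the controls against 1041 and 1065, with a log2 fold change of -0.13 (DESeq2 adjusted p = 1.00). Downstream, the amino acid transporter gene SLC7A10 overlaps the last 201 bases of the LRP3 span on the opposite strand and had at most 17 reads in a library. The transcription factor gene CEBPA, further downstream, had 4 and 58 reads in the controls and 9 and 2 in the cadmium libraries, so its controls lay on either side of cadmium 1. Of the LRP3 exonic bases, 13.3% are shared with exons of other genes, and reads on shared bases were dropped in every library.

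**Figure D2:**
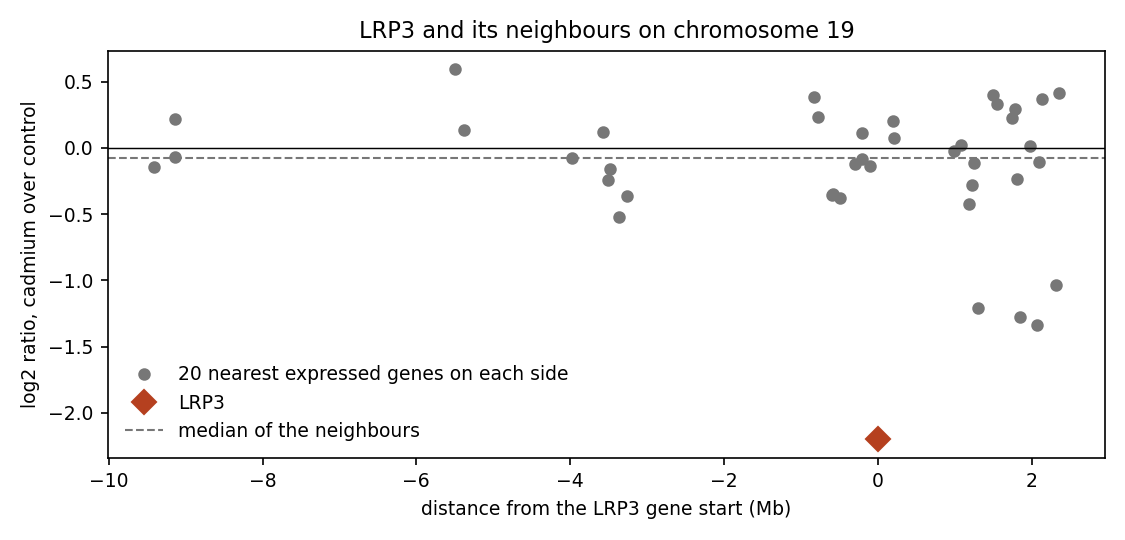
Log2 ratio of the cadmium mean to the control mean of normalized counts (pseudocount 1) for LRP3 and the 40 nearest genes averaging at least 100 such counts, against distance from the LRP3 gene start in Mb. The neighbours lie between -1.34 and 0.59 with a median of -0.08 (dashed), and LRP3 lies below them at -2.20.

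Genes with the most similar profile over the 4 libraries were sought in 14356 genes averaging at least 50 normalized counts, by Euclidean distance of log2 counts centred on each gene's mean. With 4 libraries this ranks little more than the size of the difference and the match within groups. The nearest was ARHGEF37, a gene for a guanine nucleotide exchange factor family protein, at a distance of 0.373, with normalized counts of 134 and 191 in the controls and 40.8 and 36.5 in the cadmium libraries. NMU, which encodes the neuropeptide neuromedin U, followed at 0.465, and AFAP1L2, which encodes an actin filament associated adaptor, at 0.473. PLAAT4, a phospholipid-metabolizing acyltransferase gene, lay at 0.482 and the antisense RNA gene PSMG3-AS1 at 0.522. None of these genes is on chromosome 19. Within the family the nearest was LRP11, at a distance of 2.12, which was place 5291 among all genes searched.

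The other 9 family genes were tested in the same DESeq2 fit across all genes. All 10 members passed its filter on mean count. None of the 9 had an adjusted p-value below 0.1 (0 at an unadjusted p-value below 0.05 by DESeq2, edgeR or limma-voom). Of the 19834 genes tested 1.13% were called, 0.600% as higher and 0.534% as lower. The 9 were also not called by edgeR or limma-voom, which called 0.00% of all genes. Of these 9 genes 4 were higher and 5 lower, with a median log2 fold change of -0.02, equal to the median of -0.02 over all genes tested. For 2 of the 9 genes both cadmium values were above or both below the 2 controls, against 40.3% of all genes. For 5 of the 9 both lay between the controls, against 30.9% of all genes. At least a 2-fold difference between the controls was found for 5 of the 10 members, and 0 members differed 2-fold between the cadmium libraries. Of the 12924 genes averaging at least 100 normalized counts, 14.2% and 0.317% did so. Among the members 9 reach that mean. Whether the members differ from these shares was not tested.

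**Figure D3:**
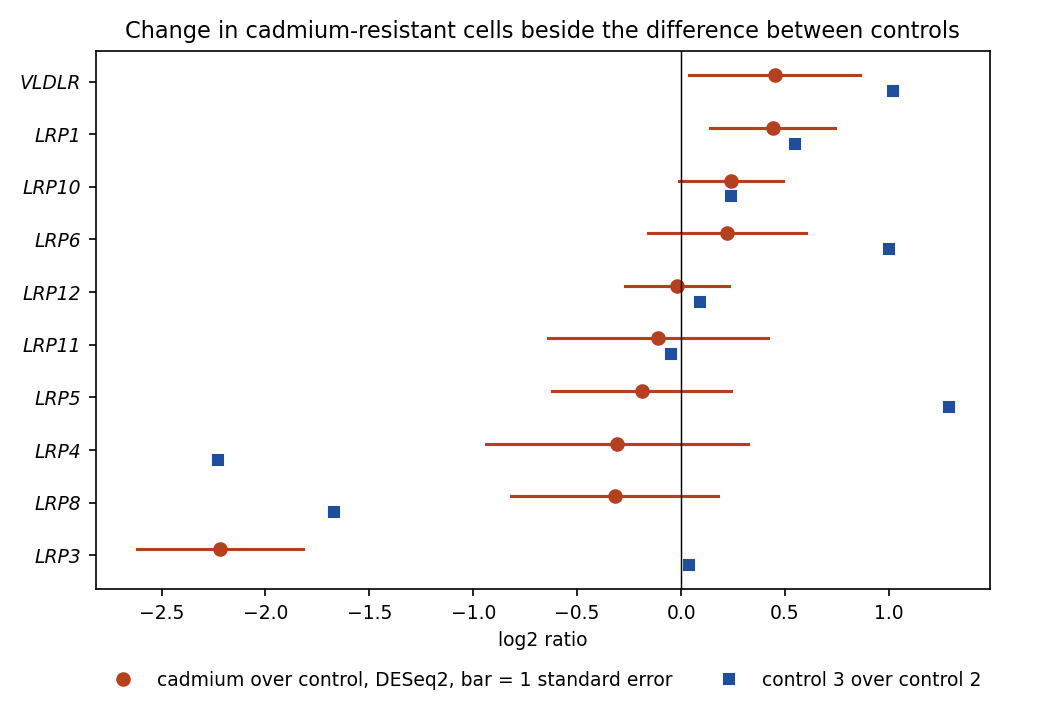
DESeq2 log2 fold change of cadmium over control (circles, bars of 1 standard error) and log2 ratio of control 3 over control 2 (squares) for each family gene. LRP3 has a change of -2.22 beside a control difference of 0.04, whereas for LRP4, LRP5 and LRP8 the control difference, at -2.23, 1.29 and -1.67, is far larger than the change.

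The remaining CUB genes differed little within either group, by at most 1.18-fold between the controls. LRP10, whose product shuttles between the Golgi apparatus and endosomes, had normalized counts of 24213 and 28570 in the controls and 31897 and 30320 in the cadmium libraries. Both cadmium values were above both controls, by 0.24 ± 0.25 (SE) on the log2 scale (DESeq2 adjusted p = 1.00). LRP12, a receptor of this subgroup on chromosome 8, had 3213, 3430, 3299 and 3249 in control 2, control 3, cadmium 1 and cadmium 2, so the cadmium values sat within the narrow control range. Its log2 fold change was -0.02, with a 95% interval from -0.50 to 0.46. The interval of LRP10 ran from -0.26 to 0.73. Leaving out control 2 gave LRP10 a value of 0.12 on the log2 scale, and leaving out control 3 gave 0.35 (DESeq2 adjusted p = 0.0126). LRP11, a distant and little-studied member, had the lowest control counts of the members, with normalized counts of 73.8, 71.2, 56.7 and 78.0. For LRP11 58.9% of exonic bases are shared with exons of other genes, mainly those of ENSG00000285991 on the same strand, and reads there were dropped.

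LRP5 and LRP6 encode the Wnt co-receptors. LRP5 had the highest mean TPM of the members, although LRP10 was above it in control 2 (246 against 243 TPM). It had normalized counts of 20701 and 50675 in controls 2 and 3 and 32405 and 29982 in cadmium 1 and 2. The cadmium libraries nearly matched each other and lay between controls that differed 2.45-fold. The log2 difference of -0.19 (SE 0.43) had a sign that depended on the control, being -0.70 without control 2 and 0.58 without control 3. LRP6 had 2551 and 5104 in controls 2 and 3 and 4433 and 4503 in cadmium 1 and 2. Again the cadmium values lay between the controls, near control 3, and the log2 fold change of 0.22 (standard error 0.38) became -0.19 without control 2. The 40 genes around LRP6 had a median log2 ratio of control 3 over control 2 of 0.71, against 1.00 for LRP6 itself. Around LRP5 that median was -0.41, opposite in sign to the 1.29 of LRP5. For cadmium over control the neighbour medians were 0.14 around LRP6 and -0.33 around LRP5, beside 0.22 and -0.19 for the genes themselves.

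LRP8 and VLDLR encode the receptors of reelin. LRP8, also known as apolipoprotein E receptor 2, had normalized counts of 6038 and 1892 in controls 2 and 3 and 2860 and 3480 in cadmium 1 and 2. Its controls differed 3.19-fold and enclosed both cadmium libraries, and the log2 fold change of -0.32 (standard error 0.50) became 0.74 without control 2. VLDLR had 517 and 1048 in controls 2 and 3 and 1149 and 981 in cadmium 1 and 2. Only control 2 stood apart for VLDLR, and the log2 fold change of 0.45 (standard error 0.41) was 0.02 without that library and 1.03 without control 3. The genes around LRP8 had a median log2 ratio of control 3 over control 2 of -0.61, against -1.67 for LRP8. For the 24 genes around VLDLR, which lies near the end of its chromosome, that median was 0.14, against 1.02 for VLDLR. The median log2 ratio of cadmium over control was 0.07 around VLDLR and -0.31 around LRP8, beside 0.44 and -0.32 for the genes themselves.

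LRP1 encodes the large endocytic receptor for protease-inhibitor complexes and matrix proteins, and LRP4 the agrin receptor of the neuromuscular junction, which also binds sclerostin. LRP1 had normalized counts of 5413 and 7899 in the controls and 9437 and 8598 in the cadmium libraries. Both cadmium values were above both controls, with a log2 fold change of 0.44, a standard error of 0.30, a DESeq2 adjusted p of 0.923 and an edgeR adjusted p of 0.676. On the log2 scale LRP1 had 0.19 when control 2 was left out and 0.72 when control 3 was (DESeq2 adjusted p = 5.49e-07). The interval of the difference, from -0.15 to 1.03, still allows about a doubling. LRP4 had 736 and 157 in controls 2 and 3 and 337 and 386 in cadmium 1 and 2. Its controls differed 4.68-fold, the widest gap of the 10 members, and the log2 fold change of -0.31 (standard error 0.63) became 1.20 without control 2 and -1.04 without control 3. Around LRP4 the median log2 ratio of control 3 over control 2 was -0.49, against -2.23 for LRP4. For cadmium over control the neighbour medians were -0.37 around LRP4 and 0.07 around LRP1, beside -0.3 and 0.44 for the genes themselves.

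Leaving out a control changed how many of the 9 were called. Without control 2 there were 3 (LRP4, LRP5 and LRP8), when 15.0% of all genes were called, and without control 3 there were 7, all but LRP11 and LRP12, when 31.2% were. Without cadmium 1 or cadmium 2 there were 0, when 0.116% and 0.110% of all genes were called. In these fits a group holds 1 library that is assumed to vary like the other group. Called members LRP4, LRP5 and LRP8 had opposite signs in the fits without control 2 and without control 3.

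Levels of the members were compared between genes per length, as TPM. LRP5 and LRP10 dominated, with means of 442 ± 282 and 280 ± 47.7 TPM in control and 389 ± 31.9 and 337 ± 21.2 TPM after cadmium (SD, n = 2 each). Next came LRP6, LRP12 and LRP1, between 24.2 and 28.2 TPM on average in control, whose ranges overlapped. LRP8 averaged 14.9 ± 10.4 TPM in control (SD, n = 2), overlapping LRP1 but not LRP4. LRP4, LRP3 and VLDLR had overlapping control ranges and means of 3.75, 3.71 and 3.62 TPM, and LRP11 was lowest at 0.906 TPM. In cadmium-resistant cells LRP3 averaged 0.816 ± 0.0671 TPM (SD, n = 2), placing it last of the 10. Its range overlapped LRP11 at 0.860 ± 0.169 TPM but not LRP4 at 3.18 ± 0.217 TPM. The lengths used include exonic bases shared with other genes, 58.9% for LRP11 and 13.3% for LRP3, where reads were dropped. TPM is therefore understated more for LRP11 than for LRP3, and their order and overlap cannot be taken from these values. Among all genes of the table, LRP3 ranked 12260 and 12417 by TPM in the controls and 17772 and 17940 in the cadmium libraries. Its share of the summed TPM of the 10 members was 0.602% and 0.365% in the controls and 0.0980% and 0.0960% in the cadmium libraries. That sum was 584 TPM in control 2 and 1070 TPM in control 3, with 881 and 801 TPM in the cadmium libraries, so the total of the family in cadmium-resistant cells lay between the controls.

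**Figure D4:**
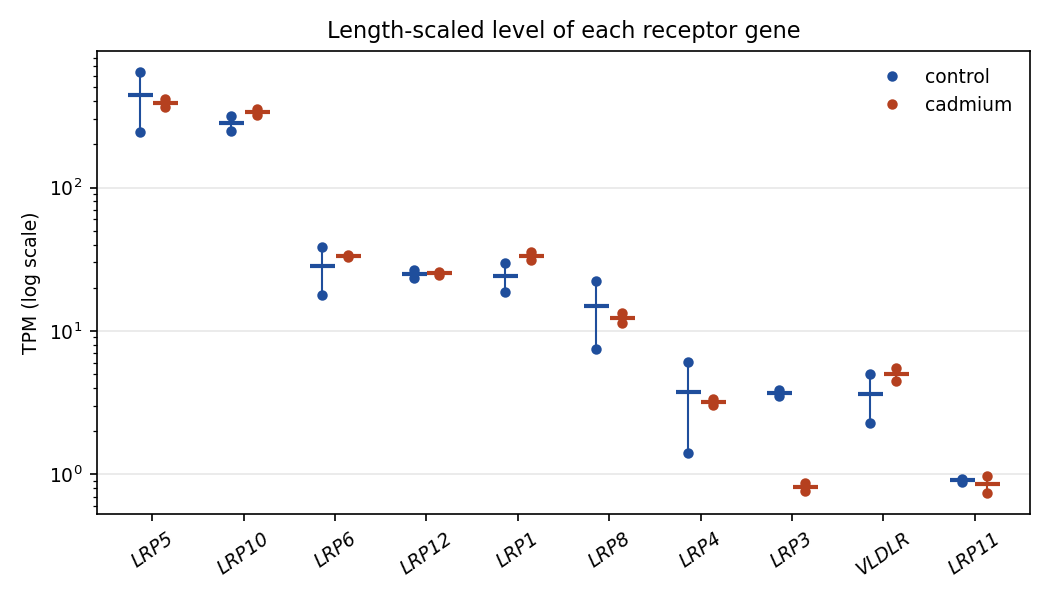
Length-scaled level (TPM, log scale) of each family gene, with points for the 2 libraries of a group joined by a line and a bar at their mean, and genes ordered by control mean. LRP5 and LRP10 sit at 280 TPM or more on average in control. LRP3 averages 3.71 TPM in control and 0.816 TPM in cadmium-resistant cells, where its range overlaps that of LRP11. Reads on shared exonic bases were dropped, which understates LRP11 more than LRP3.

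Genes that work with these receptors were described by list. Genes named for abundance in a list are those with its highest mean normalized counts, which are not scaled for gene length. The share of all genes at an unadjusted DESeq2 p-value below 0.05 is not given. List counts at that level therefore have no background beside them. Reelin and agrin pathway genes came first, since LRP8, VLDLR and LRP4 act in them. Of 16 genes 15 passed the count filter, 1 rose and 0 fell, where 0.600% of all genes rose, and the list's median log2 fold change was 0.17. The gene that rose was RELN (ENSG00000189056, chromosome 7, 103471381 to 103989658), which encodes reelin, the extracellular ligand of LRP8 and VLDLR. It had 20 and 17 reads in controls 2 and 3, and 124 and 189 in cadmium 1 and 2. Normalized counts were 18.5 ± 0.600 in control and 155 ± 44.7 after cadmium (SD, n = 2 each), so the groups did not overlap. The difference on the log2 scale was 3.07 ± 0.55 (SE, DESeq2 adjusted p = 2.01e-05), whereas edgeR gave an adjusted p-value of 0.587 (unadjusted 0.00121). Without cadmium 1 the DESeq2 adjusted p-value was 0.22, and without cadmium 2 DESeq2 gave none. The 40 genes around RELN had a median log2 ratio of -0.34 and lay between -1.12 and 0.50, all below RELN. Its level stayed low, at 0.0387 and 0.0399 TPM in the controls and 0.274 and 0.399 TPM in the cadmium libraries. DAB1, the adaptor that carries the reelin signal in neurons, was listed at 0 in every library, which allows up to 3 counts in each. The agrin gene AGRN had a log2 fold change of -0.18 (DESeq2 adjusted p = 1.00). MUSK, the kinase that LRP4 activates at the muscle synapse, was named after its values were seen, with normalized counts of 60.6 and 206 in the controls and 299 and 509 in the cadmium libraries, which is 3.03-fold or 1.60 on the log2 scale (DESeq2 adjusted p = 0.309).

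The Wnt pathway list, with ligands, Frizzled receptors, inhibitors and cytoplasmic partners of LRP5 and LRP6, held 61 genes. Of these 44 passed the count filter, and 0 were called (0 by edgeR adjusted), where 1.13% of all genes were called by DESeq2. At an unadjusted DESeq2 p-value below 0.05 there were 4, a count without an all-gene share beside it. The list's median log2 fold change was -0.02, the same as over all genes. CTNNB1, which encodes β-catenin, had normalized counts of 31172 and 30185 in the controls and 32234 and 30897 in the cadmium libraries. The LRP5 and LRP6 inhibitor gene DKK1 had 18074 and 11646 in the controls, enclosing 16823 and 13885 in the cadmium libraries. DVL1, encoding a Dishevelled scaffold, had a log2 fold change of -0.03. KREMEN2, a DKK1 receptor gene named after its values were seen, had 167 and 115 in the controls against 61.7 and 57.3, with a log2 fold change of -1.25 (DESeq2 adjusted p = 0.351).

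LRP1 ligands numbered 23, of which 21 passed the filter and 0 were called, where 1.13% of all genes were. At an unadjusted DESeq2 p-value below 0.05 there was 1, again without an all-gene share beside it. The list's median log2 fold change was -0.19. The matricellular protein genes CCN1 and THBS1 were among those with the highest normalized counts. CCN1 had normalized counts of 188059 and 82493 in the controls, on either side of 124698 and 142262 in the cadmium libraries. THBS1 had 99176 and 81356 in the controls against 73390 and 82297, so the groups overlapped. The chaperone gene HSP90AA1, whose product LRP1 binds outside cells, had a log2 fold change of 0.08.

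Chaperones, adaptors and coat proteins of the receptors numbered 27. Of these 26 passed the filter and 0 were called, where 1.13% of all genes were. At an unadjusted DESeq2 p-value below 0.05 there was 1, also without an all-gene share beside it. The list's median was -0.07. The clathrin heavy chain gene CLTC and the AP-2 adaptor gene AP2B1 had log2 fold changes of 0.07 and 0.10. AP2M1, which encodes the AP-2 subunit that reads tyrosine-based sorting signals, had 25990 and 21141 in the controls against 15760 and 17816 in the cadmium libraries. Those groups did not overlap, at a log2 fold change of -0.49 (DESeq2 adjusted p = 0.766). The receptor chaperone genes LRPAP1 and MESD, both named after their values were seen, had log2 fold changes of -0.28 and -0.51.

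All 18 proteases and γ-secretase subunits that process the receptors passed the filter, and 0 were called, where 1.13% of all genes were. At an unadjusted DESeq2 p-value below 0.05 there were 3, a count without an all-gene share beside it and not to be read as an excess. The list's median was -0.05. MMP14, a membrane metalloproteinase that sheds LRP1, had normalized counts of 42061 and 41358 in the controls and 59864 and 60143 in the cadmium libraries. The libraries of each group were close and the groups apart, at 0.52 ± 0.23 (SE) on the log2 scale (DESeq2 adjusted p = 0.557). ADAM10 had a log2 fold change of -0.50 and ADAM9 of 0.06. APH1B, a γ-secretase subunit gene named after its values were seen, had 951 and 924 in the controls against 532 and 488. Its log2 fold change was -0.88 with a DESeq2 adjusted p-value of 0.125.

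A list of 12 other genes was also described, most of them with class A repeats or related names. Of these 9 passed the filter and 0 were called (0 by edgeR adjusted), where 1.13% of all genes were called by DESeq2. At an unadjusted DESeq2 p-value below 0.05 there were 0, and the list's median was -0.19. SORL1, a sorting receptor, had normalized counts of 2560 and 3313 in the controls and 2960 and 2426 in the cadmium libraries, so the groups overlapped, and its log2 fold change was -0.12. SUSD2 differed 27.2-fold between the controls, at 210 and 5707, and the cadmium libraries lay between them at 1357 and 1168. LRP2 and LRP1B, encoding the giant receptors of kidney and brain, had at most 14 and 30 reads in a library.

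**Figure D5:**
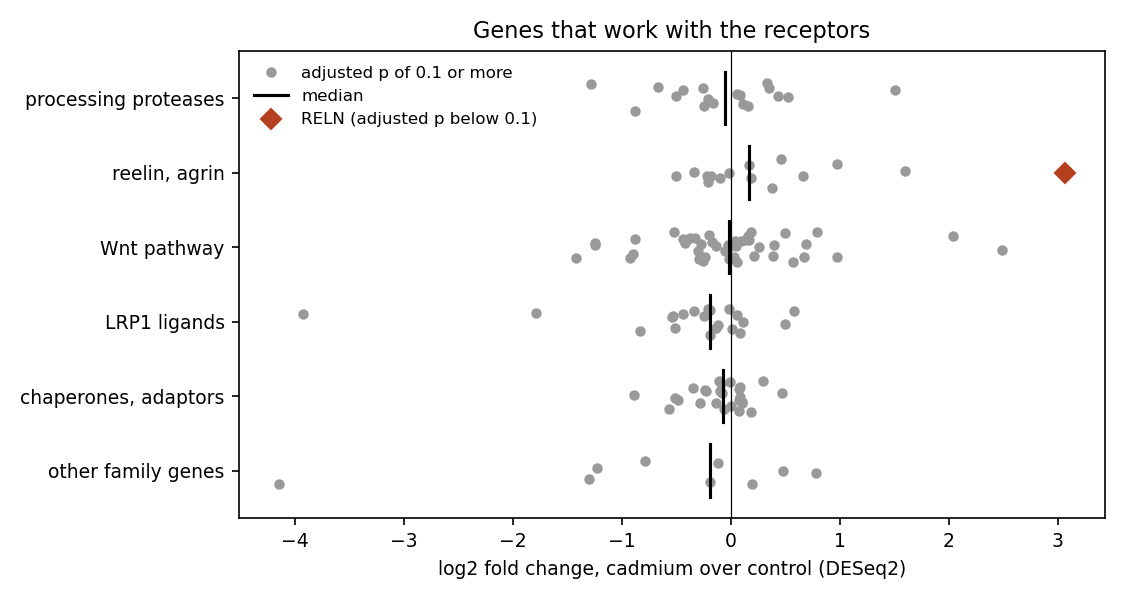
DESeq2 log2 fold change of cadmium over control for each gene of the 6 lists that passed the count filter, with a bar at each list's median. RELN, at 3.07, is the gene of these lists with an adjusted p-value below 0.1, and the list medians lie between -0.19 and 0.17.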

How the data were processed

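The file held raw read counts per gene that the authors deposited without normalization. Per its header and the study's methods, the authors trimmed adaptors with bbduk, aligned reads to hg38 with HISAT2 and counted reads over Ensembl genes with featureCounts 2.0.1. The header command set no options for pairs or strand, so mates were counted singly, strand was ignored, and reads on several genes or loci were dropped. Mates counted singly make counting intervals too narrow. Gene lengths, in bases of exon, came from the same deposited table. The 37 mitochondrial genes were listed at 0.

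Groups followed the labels. Control columns are headed 2 and 3, the header command calls their files A and B, and the labels number the controls 1 and 2, so they carry a group only. Gene symbols were looked up by Ensembl identifier (61369 matched), promoters from RefSeq, and 7 of 10 members had one.

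The study also used DESeq2, in another version. Here DESeq2 1.42.0 in R 4.3.3 gave size factors, log2 fold changes and two-sided Wald tests with Benjamini-Hochberg adjustment (threshold 0.1, mean count filter 7.65). Alternatives were edgeR 4.0.16 (quasi-likelihood, TMM), limma 3.58.1 (voom), other scalings and filters, and leaving out each library. edgeR called 0 of 19241 genes (1506 at an unadjusted p-value below 0.05), and limma-voom called 0 (1423). On simulated counts DESeq2 and edgeR recovered most large changes, DESeq2 with more false calls than its threshold allows, and limma-voom was not simulated. TPM and neighbourhood ratios (pseudocount 1) used Python 3.11.15. Members and lists were chosen with earlier results of these data known. Named genes were all members, called genes of each list or those with its highest mean normalized counts (not scaled for length) up to 3, the 5 genes most like LRP3 and its neighbours. Some genes that this rule names are not reported here.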

Additional observations from a re-analysis of the deposited data

How the results depend on the processing

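No paired analysis was possible because numbers heading the control columns differ from those in the labels. The LRP3 log2 fold change is a description only, because LRP3 was chosen for its fall in these same libraries. It stayed within -2.28 to -2.17 in the fits that left out a library. The count of other members called was 0 under every alternative run except leaving out a control. The cause of the following shifts was not tested. With limma-voom the log2 fold change was 0.05 for LRP4, 0.28 for SUSD2 and 0.10 for CCN1. Upper-quartile factors gave 0.04 for LRP12, 0.04 for CCN1 and 0.03 for DVL1, and protein-coding genes alone gave 0.01 for LRP12 and 0.02 for CCN1. RELN, at 3.06 and 3.01, was not called by edgeR or limma-voom, which left 0 calls in its list. Among the proteases 1 gene was called with at least 10 counts in 2 libraries, and 1 with protein-coding genes alone.

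List medians moved as follows. With upper-quartile factors they were -0.41 for other family genes, -0.01 for chaperones and 0.01 for proteases. The median of other family genes was -0.47 without independent filtering and -0.49 with halved counts. Each median covers only genes with an adjusted p-value in that fit, so the genes behind it can differ. Independent filtering itself leaves each gene's fold change as it was. Chaperones gave -0.03 with limma-voom, and the reelin and agrin list 0.08 with halved counts. Proteases gave -0.16 with edgeR, -0.15 with limma-voom, -0.15 with at least 10 counts in 2 libraries and -0.18 with halved counts. The neighbours of VLDLR gave a median of 0.01 with 10 on each side and 0.13 with a mean count of at least 10, against 0.07.

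Leaving out each library in turn gave log2 fold changes of 0.19 to 0.72 for LRP1, 0.12 to 0.35 for LRP10, 0.02 to 1.03 for VLDLR, -1.04 to 1.20 for LRP4, -0.70 to 0.58 for LRP5, -0.19 to 0.80 for LRP6, -0.94 to 0.74 for LRP8, -0.36 to 0.10 for LRP11, -0.07 to 0.02 for LRP12, -0.30 to 0.06 for SORL1, -2.18 to 2.58 for SUSD2, -0.03 to 0.22 for AP2B1, -0.06 to 0.18 for CLTC, -0.51 to 0.69 for CCN1, -0.25 to 0.40 for DKK1, -0.23 to 0.18 for DVL1, -0.37 to 0.03 for AGRN, -0.26 to 0.46 for ADAM9, -0.76 to -0.20 for ADAM10, -0.64 to -0.33 for AP2M1, -0.36 to -0.07 for THBS1 and 0.02 to 0.12 for HSP90AA1. MMP14 gave 0.50 to 0.54, CTNNB1 0.00 to 0.07 and RELN 2.73 to 3.33. Calls ranged from 0 to 4 for other family genes, 0 to 10 for chaperones and adaptors, 0 to 12 for LRP1 ligands, 0 to 19 for the Wnt list, 0 to 7 for reelin and agrin and 0 to 11 for proteases. The medians ranged from -0.53 to 0.08, -0.09 to -0.01, -0.25 to -0.05, -0.08 to 0.00, -0.05 to 0.06 and -0.15 to 0.01 in that order. All list calls came from the fits without a control. Of all genes, 15.0% were called without control 2 and 31.2% without control 3. Whether the list counts differ from these shares was not tested. Depth limits LRP3, LRP11 and RELN, which had under 300 reads in every library.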
